A study of Anopheles gambiae with 6 samples.

Results

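A group of 189 Anopheles probe sets was bright in the mosquito embryo and dimmer in the serosa. They were chosen from the 16884 Anopheles probe sets on the array, of which they are 1.12%. A probe set is a group of short probes on an Affymetrix array that read 1 transcript or part of it. Each member had a log2 value above 8 on each of the 3 embryo arrays and 6.4 or more on each of the 3 serosa arrays, and its serosa mean lay at least 1.3 below its embryo mean. A fall of 1.3 on the log2 scale is 2.46-fold. The levels and differences of the members in these arrays are therefore set by the choice and are given as a description, with no test.

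The data come from Anopheles gambiae, a mosquito that carries malaria, of the Kisumu strain, at 10.5 h of development. All material was fixed in formaldehyde. The embryo group held RNA of embryos dissected by hand from the egg, and the serosa group held RNA of the eggshells that remained, with the serosa attached. The series' design text once calls the embryo group whole embryos, and the labels were followed. There were 3 biological replicates of each, with 1 array per replicate and 22761 probe sets on each array, and no treatment or genetic change is named for either group. The array values do not show what the eggshells carried besides the serosa. No table used here links the IDs of the probe sets to genes. The labelled tissues were therefore not checked against marker genes here, members are described by level, chromosome arm and class, and only 2 are named by ID.

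The serosa is an epithelium outside the embryo proper that closes around it early in insect development and in mosquitoes lays down a chitin-containing cuticle beneath the eggshell. In insects such as the flour beetle its cells leave the cell cycle early and become polyploid, whereas the cells of the embryo go on dividing and take on their fates. A transcript used by both tissues can therefore be present at unequal levels without being absent from either. In bulk RNA such as this, fewer cells of a type and less RNA per cell cannot be told apart.

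Members spanned a wide range of levels and a narrow range of falls. Their embryo means ran from 8.18 to 13.1 with a median of 9.38, and their serosa means from 6.71 to 11.7 with a median of 7.81. The median difference was -1.49, a 2.82-fold fall, and the middle 50% of members lay between -1.61 and -1.38. The same median was 0.01 over all Anopheles probe sets and -0.60 over the 1544 that met both level limits. A fall of at least 1.5 was found in 89 members, of at least 1.6 in 51, and of at least 2 in 2. The size of the fall depended on the scaling of the arrays. With the medians of bright probe sets made equal across arrays the median over all Anopheles probe sets rose to 0.33 and that of the members to -1.17. With the hybridization controls made equal these became -0.59 and -2.09. Both scalings add a constant to each array and so shift all differences alike. That all 189 members stayed lower in serosa follows from the limit of the rule and these shifts. The rule then chose 46 and 512 probe sets in place of 189. As a level of unspecific signal, the 95th percentile of 290 probe sets with IDs of human arrays was 6.41, 6.32 and 6.47 on serosa arrays 1 to 3 and 6.19 in the mean of the embryo arrays, so the serosa limit of the rule lies about at that level. On at least 1 serosa array, 44 members were less than 0.5 above it or under it, and 1 of these was under it, while 94 were at least 1 above it on all 3. Even after the fall, 54 members stayed above 8 on all 3 serosa arrays, while 77 were at or below 8 on all 3.

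The member with the largest fall was Ag.3R.827.0_CDS_at, a coding probe set of arm 3R whose gene is not named in the files. It measured 8.58, 9.49 and 9.82 in embryo replicates 1 to 3 and 6.73, 6.72 and 8.32 in serosa replicates 1 to 3. The means were 9.29 ± 0.64 and 7.26 ± 0.93 (SD, n = 3 each), a difference of -2.04. Serosa replicate 3 was far above the other serosa arrays and only 0.25 below the lowest embryo array. The difference was -2.57 without that array.

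The brightest member in embryo was Ag.3R.561.0_CDS_at, also a coding probe set of arm 3R. Its embryo values were 13.1, 13.05 and 13.02 and its serosa values 11.95, 11.06 and 11.94, with means of 13.07 ± 0.06 and 11.7 ± 0.51 (SD, n = 3 each) and a difference of -1.42. Every serosa array was at least 1.07 below every embryo array, and serosa replicate 2 was the lowest.

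Other members had steadier values. The member with the fourth largest fall, a probe set of arm 3L with neither class in its ID, measured 10.91, 10.90 and 11.15 in embryo and 8.84, 8.99 and 9.34 in serosa. Its difference was -1.93, and the gap of 1.56 between its lowest embryo and highest serosa array was the widest of any member. The member with the smallest spread in serosa, a coding probe set of arm 2R, measured 9.25, 9.34 and 9.10 in embryo and 7.81, 7.84 and 7.90 in serosa, a difference of -1.38.

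In limma's moderated test over all Anopheles probe sets, with Benjamini-Hochberg adjusted p under 0.05, 180 of the 189 members were called lower in serosa. The same call was made for 8.79% of all Anopheles probe sets and for 40.2% of those that met both level limits. Since the rule used this contrast, the members' count describes how the rule and the test relate and supports nothing. Without embryo replicate 2, 118 members and 678 of all Anopheles probe sets were called lower, and without embryo replicate 3, 107 and 647. Without serosa replicate 1 these counts were 129 and 852, against 180 and 1484 with all arrays. Every serosa array lay under every embryo array in 187 members. The same held for 17.1% of all Anopheles probe sets and for 846 of the 1544 that met both level limits. The groups overlapped in the remaining 2 members. One of these, a UTR probe set of arm 3R, had the widest spread of all members in both tissues, at 8.64, 10.60 and 9.16 in embryo and 7.08, 9.29 and 7.85 in serosa. Its counterpart, of arm 2L, measured 8.24, 9.48 and 8.41 in embryo and 6.95, 8.36 and 6.83 in serosa. In both, replicate 2 was the highest array of each tissue, and serosa was lower than embryo within each replicate number, with differences from -1.58 to -1.13. With the replicate number as a block, limma called all 189 members lower, and 1976 of all Anopheles probe sets.

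The limit of the fall cuts a continuous distribution. The 3 members just inside it had differences from -1.304 to -1.302, and the 3 probe sets just outside it from -1.298 to -1.295. A further 21 probe sets were above 8 on each embryo array and fell as far, but were under 6.4 on at least 1 serosa array. Their median levels were 8.57 in embryo and 6.84 in serosa, and their median difference of -1.78 was further from 0 than that of the members.

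**Figure D1:**
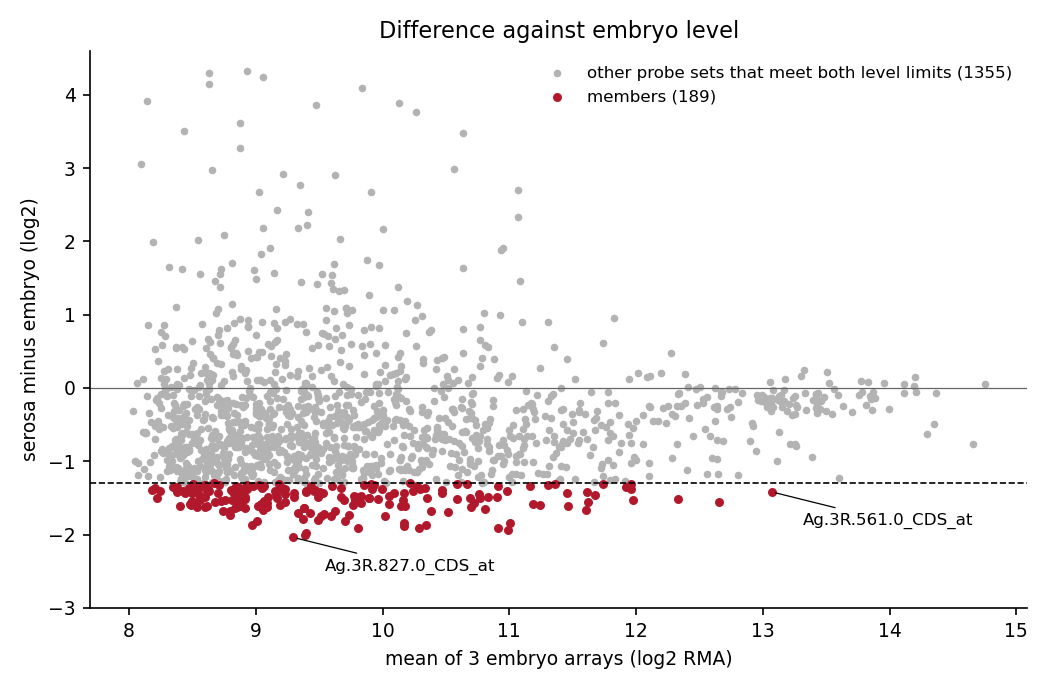
The difference between the serosa and embryo means (log2) is plotted against the mean embryo level (log2 RMA) for the 1544 probe sets that met both level limits, with the 189 members in red under the dashed limit of -1.3. Members are spread over embryo levels from 8 to 12, where they make up similar shares at each level, and only 3 lie above 12.

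Among probe sets that met both level limits, the share that were members was nearly flat up to an embryo level of 12 and then dropped. It was 13.7% of 475 between levels 8 and 9, 13.2% of 507 between 9 and 10, 13.8% of 268 between 10 and 11, and 12.1% of 141 between 11 and 12. Above 12 there were 3 members among 153 probe sets, or 1.96%. The median difference of all probe sets in that brightest range was -0.21, against -0.67 between 8 and 10 and -0.66 between 10 and 12. Within the members, the embryo level and the difference were nearly unrelated (Pearson's r = -0.05 across 189 probe sets, which share the same 6 arrays). The rule cuts both measures and leaves a narrow range of falls, so a relation could hardly show there.

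The members did not sit alike on the 3 arrays of a tissue. Their median level was 9.15, 9.48 and 9.46 on embryo arrays 1 to 3 and 7.84, 7.46 and 8.17 on serosa arrays 1 to 3. Serosa replicate 2 gave the lowest serosa value in 141 of the 189 members and serosa replicate 3 gave the highest in 149. The rule did not use the order of the arrays. A choice by a low serosa mean can still favour probe sets with a low serosa array, so the order is not free of the rule.

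The other 1355 probe sets that met both level limits, which the limit of the fall left out, had the opposite order. Their medians were 9.32, 9.40 and 9.10 on serosa arrays 1 to 3, with replicate 3 the lowest in 51.4% of them and replicate 2 the lowest in 31.7%. For each probe set the value of each array was also expressed as its deviation from the mean of its tissue. The median deviation of the members was 0.01, -0.37 and 0.34 on serosa arrays 1 to 3, and that of the others 0.05, 0.11 and -0.13.

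The 128 probe sets that were at least 8-fold higher in serosa mirrored the members. They were taken by a high serosa mean, so their order is not free of that choice either. Their median deviations on serosa arrays 1 to 3 were -0.01, 0.63 and -0.53, with replicate 2 the highest in 105 of them. The embryo arrays separated less. Embryo replicate 1 was the lowest embryo array in 128 members (67.7%) and in 47.9% of the other probe sets.

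Control probe sets moved with this order. The mean of the 18 hybridization controls, whose targets are added to the labelled sample, was 10.02, 10.8 and 9.56 on serosa arrays 1 to 3 and 9.64, 9.57 and 9.40 on embryo arrays 1 to 3. The actin control at the 3' end of the transcript minus that at its middle, a common measure of RNA integrity and of amplification, was 2.70, 3.20 and 2.24 on the serosa arrays and 2.15, 2.09 and 2.16 on the embryo arrays. Both measures were highest on serosa replicate 2, where the members were lowest, and lowest among serosa arrays on replicate 3, where the members were highest. The same difference for Gapdh, a glycolytic enzyme, was 1.90, 1.45 and 1.42 in serosa and 1.97, 1.44 and 1.86 in embryo, and did not follow that order. The part of these measures in the members' fall was not tested.

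**Figure D2:**
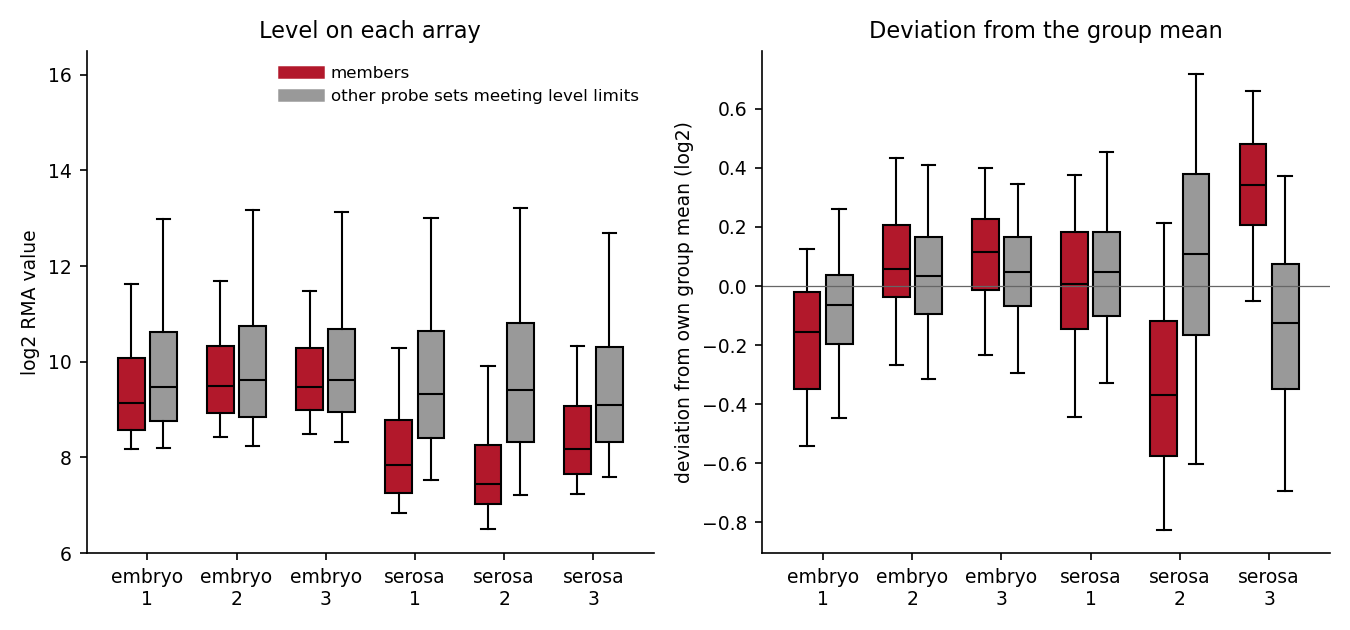
Boxes show the log2 RMA level on each array (left) and the deviation of each value from the mean of its own tissue (right), for the 189 members (red) and the other 1355 probe sets that met both level limits (grey). Boxes span the quartiles with the median as a line, and whiskers the 5th to 95th percentile. Members were lowest on serosa replicate 2 (median deviation -0.37) and highest on serosa replicate 3 (0.34), the reverse of the other probe sets.

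Taken by replicate number, the median difference of the members was -1.91 in number 2 and -1.29 in number 3, and in number 1 it lay at the limit of the rule. All 189 were lower in serosa than in embryo within each number, a count that the limit on the mean fall largely sets. A fall of at least 1.3 was reached by 94 members in number 1, by 183 in number 2 and by 90 in number 3. Of the other 1355 probe sets that met the level limits, 963, 925 and 1153 were lower in serosa in numbers 1 to 3. A fall of at least 1.3 was reached by 22, 200 and 24 of them. Their medians were -0.34, -0.40 and -0.65, and the rule held their mean falls under its limit. The spread between replicates was wider in serosa than in embryo in both sets, with a median SD of 0.41 against 0.24 in the members and 0.32 against 0.19 in the others.

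Leaving 1 array out of the rule gave a view of the fall on an array that had not been used to choose. The arrays were normalized together. Each left-out difference was taken against the arrays of the other tissue, which had entered the choice, so it is not separate from the rule. The probe sets not chosen had smaller falls on the arrays used, which favours a smaller left-out difference. Without serosa replicate 2 the rule chose 121 probe sets, of which 103 were among the 189. On the left-out array their median difference from the embryo mean was -1.71, and 119 of them were below every embryo array, as were 59.2% of the probe sets not chosen. Without serosa replicate 3 it chose 258, with a median of -1.07 on that array. Of these, 256 were below every embryo array, as were 964 of the 1286 not chosen, but only 44 had fallen by 1.3 there. Without serosa replicate 1 it chose 233, with a median of -1.33 on that array.

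The embryo arrays were left out in the same way, with the same dependence on the choice. Left-out embryo replicates 1, 2 and 3 had median differences of -1.19, -1.49 and -1.58 in the 272, 186 and 171 probe sets chosen without them. Between 97.1% and 98.9% of these lay above every serosa array on the left-out array, against 53.8% to 62.4% of the probe sets not chosen. Of the 189 members, 84 (44.4%) were chosen under all 6 leave-outs. These had a median difference of -1.62, against -1.40 for the other 105. Members far past the limit pass more readily whichever array is left out, so this contrast follows in part from the rule.

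**Figure D3:**
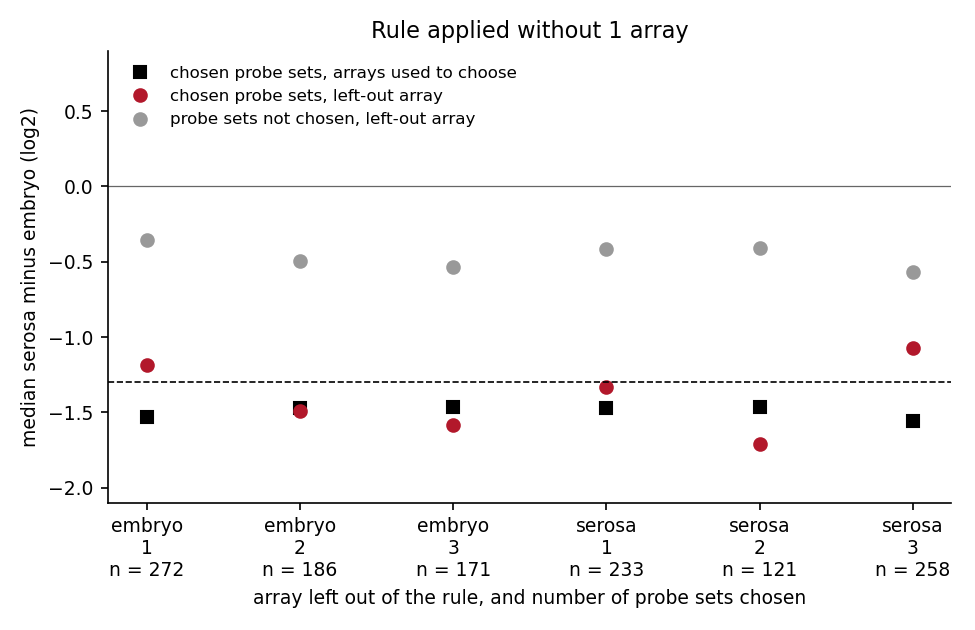
Median serosa minus embryo differences (log2) are shown for the probe sets chosen with each of the 6 arrays left out, over the arrays used (black squares) and on the left-out array (red), with the probe sets not chosen in grey. The left-out medians ran from -1.07 on serosa replicate 3 to -1.71 on serosa replicate 2, all below those of the probe sets not chosen (-0.35 to -0.57). Each left-out difference also uses the arrays of the other tissue, which entered the choice.

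Most members were probe sets of coding sequence, as are most probe sets of the array. Few were of untranslated regions (UTRs), compared with the probe sets that met both level limits. The class is written in the probe set ID and was not used by the rule. Of the members, 134 were coding, 9 were UTR and 46 carried neither class. Coding probe sets made up 70.9% of the members, 83.3% of all Anopheles probe sets and 49.9% of those that met both level limits. UTR probe sets made up 4.76%, 4.68% and 20.1%. The members thus held nearly the same share of UTR probe sets as the array and a smaller one than the probe sets that met both limits. Among probe sets that met both level limits, 17.4% of 771 coding, 2.89% of 311 UTR and 9.96% of 462 without a class were members. The UTR probe sets were brighter, with a median embryo level of 9.95 against 9.32 for the coding ones, so the shares were also taken within levels.

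The order of the classes was the same within levels. Between embryo levels 8 and 10, the share was 17.8% of 540 in the coding class and 3.80% of 158 in the UTR class. Between 10 and 12 the shares were 21.6% of 162 and 2.88% of 104. Above 12 they were 3 of 69 and 0 of 49. Coding probe sets had the higher share under all 10 settings in which the rule was applied, by 4.87 to 20.2 percentage points, a check chosen after the data were seen. The wider fall of bright coding probe sets was known from these same arrays when the members were chosen, so these shares are not separate evidence of it. No test of enrichment was made.

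**Figure D4:**
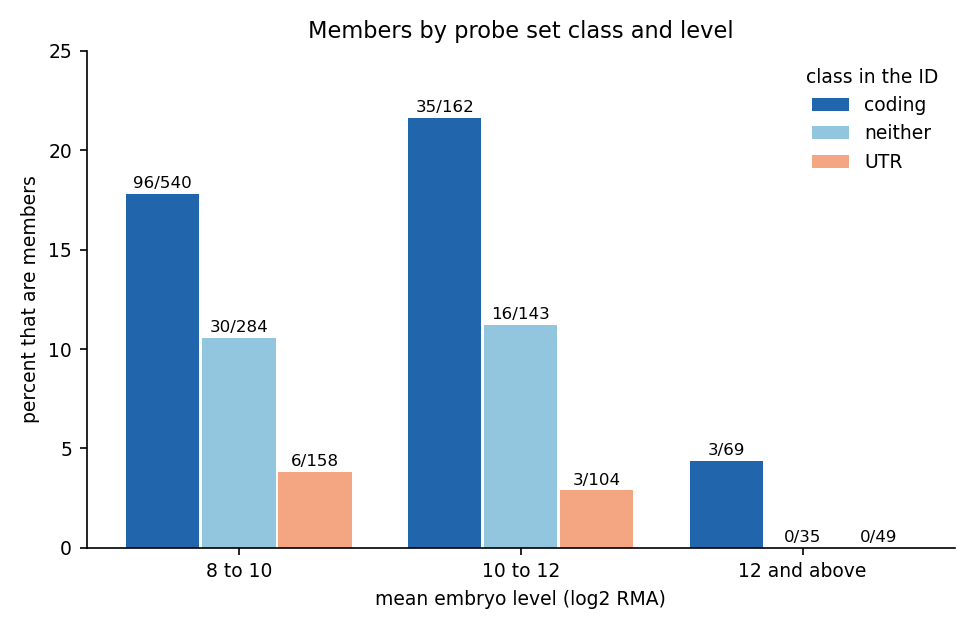
Bars give the percentage of probe sets meeting both level limits that were members, by the class in the ID and by mean embryo level (log2 RMA), with counts above each bar. Coding probe sets had the highest share in each level range (17.8%, 21.6% and 4.35%) and UTR probe sets no more than 3.80%.

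The array order differed between classes of members. Serosa replicate 2 was the lowest serosa array in 110 of 134 coding members (82.1%), in 26 of 46 without a class (56.5%) and in 5 of 9 UTR members. Serosa replicate 3 was the highest in 111 coding members (82.8%) and in 32 without a class (69.6%). Among the other 637 coding probe sets that met the level limits, replicate 2 was the lowest in 38.5% and replicate 3 the highest in 27.5%. The actin 3' minus middle values given above ran with the same arrays, and their part in the class shares was not tested. The brightest of the UTR members, of arm 2R, also had the largest fall among them. It measured 11.56, 11.68 and 11.15 in embryo and 9.60, 9.84 and 10.10 in serosa, a difference of -1.62.

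Members came from all arms, with few from the X chromosome. Arm 2R held 67, 3R held 48, 2L held 39 and 3L held 24. Probe sets whose arm is given as UNKN numbered 9, and the X had 2. As shares of the probe sets that met both level limits these are 13.6% on 2R, 16.1% on 3R, 11.5% on 2L, 9.88% on 3L, 10.8% for UNKN and 2.20% of 91 on the X, against 12.2% over all arms. The X carried 1.06% of the members, 8.31% of all Anopheles probe sets and 5.89% of those that met both level limits.

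The X-linked share was also low within class and level. It was 1 of 30 coding X-linked probe sets, against 18.4% of 694 autosomal coding ones, and 2 of 55 X-linked probe sets between embryo levels 8 and 10, against 14.1% of 881 autosomal ones. The X share was under that of all arms in the same 10 settings, by 3.15 to 12.5 percentage points. Like the class difference, this was known from these arrays beforehand, and no test was made.

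Both X-linked members showed the common array order. The coding one measured 8.56, 8.64 and 8.61 in embryo and 6.99, 6.48 and 7.47 in serosa, a difference of -1.62. The other, with no class in its ID, measured 9.16, 9.07 and 9.46 in embryo and 7.75, 6.97 and 8.32 in serosa, a difference of -1.55. In both, serosa replicate 2 was the lowest array and replicate 3 the highest of the serosa, and no serosa array reached the embryo range.

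The last letters of the ID show how far the probes of a set are shared. By Affymetrix naming, sets ending in at alone are specific to 1 sequence, a_at marks transcripts of 1 gene, and s_at and x_at mark probes shared with other sequences. Members comprised 129 of the first kind, 42 a_at, 17 s_at and 1 x_at. The 18 with shared probes could read more than 1 gene, and their values are uncertain in that respect. As shares of the probe sets that met both level limits, 13.9% of 929 specific sets, 10.1% of 416 a_at and 8.76% of 194 s_at were members.

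Some members share an arm and number in their IDs with other probe sets, and these need not be independent readings of different genes. The sources used here do not say what the number stands for. The 189 members carried 184 combinations of arm and number, and 4 combinations held several members, 9 in all. For 29 combinations the array also held probe sets that were not members, 34 in total, and 152 members shared theirs with no other probe set.

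These related probe sets missed at least 1 limit of the rule, so how their differences stand to those of the members is set in part by the choice. Their differences ran from -1.79 to 0.10 with a median of -0.64, and 30 of 34 were below 0. Limma called 12 of them lower over all Anopheles probe sets (adjusted p under 0.05), or 35.3%, beside the 8.79% of all Anopheles probe sets. They were split at the embryo level of unspecific signal, 6.19. The 17 above it had a median difference of -0.98, from -1.79 to -0.33, and 11 were called. In serosa 7 of these 17 had a mean under the mean unspecific level of the serosa arrays, so their differences are not exact. The 17 at or below the embryo level, where a fall cannot be read, had a median of -0.25, and 1 was called.

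The second largest fall among the members belonged to 1 such combination. This coding s_at probe set of arm 3R measured 8.90, 9.89 and 9.38 in embryo and 6.96, 7.41 and 7.78 in serosa, and the groups lay 1.11 apart. A further member with that arm and number, also coding, measured 11.53, 11.97 and 11.33 in embryo and 9.55, 10.27 and 10.01 in serosa, a difference of -1.66. A coding a_at probe set with the same arm and number went from 7.29 ± 0.53 to 5.50 ± 0.66 (SD, n = 3 each), a difference of -1.79. Its serosa mean was under the level of unspecific signal there, so this difference is not exact. The remaining one, at 4.32 ± 0.18 and 4.19 ± 0.21, lay under the level of unspecific signal in both tissues.

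The second brightest member shared its arm and number with probe sets of smaller differences. This coding probe set of arm 2R measured 12.6, 12.8 and 12.6 in embryo and 11.1, 10.8 and 11.4 in serosa, a difference of -1.56. Of the other probe sets with its arm and number, one went from 14.66 ± 0.10 to 13.89 ± 0.22 and another from 14.30 ± 0.21 to 13.67 ± 0.19 (SD, n = 3 each), differences of -0.76 and -0.63. Both lay between embryo levels 13 and 15, where the median difference of all probe sets that met both level limits was -0.17. Probe sets with 1 arm and number thus gave unequal differences here, at unequal levels.

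**Figure D5:**
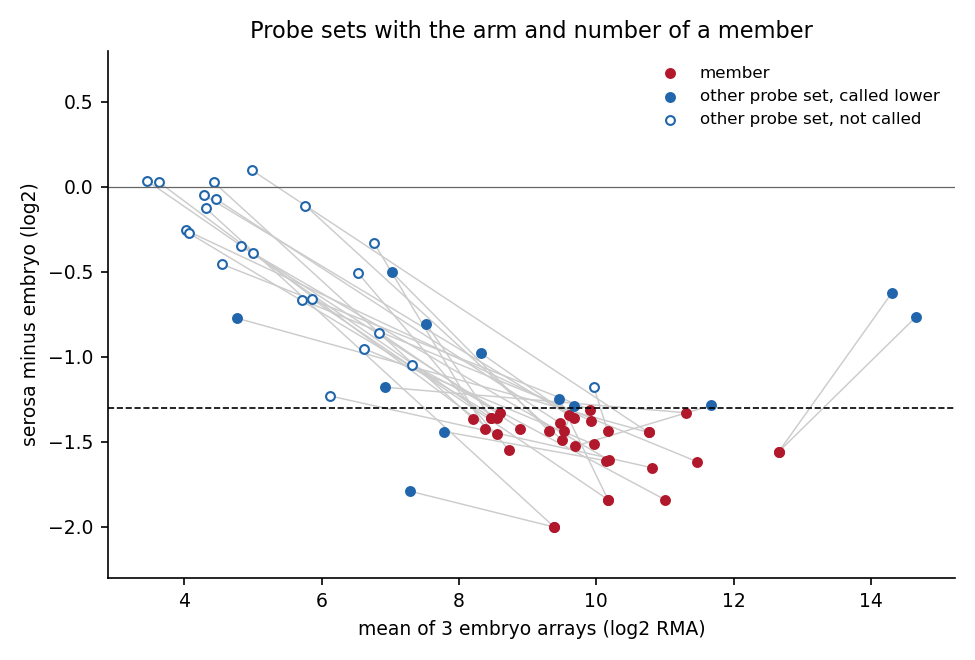
Members (red) are joined to the 34 other probe sets with the same arm and number (blue, filled where called lower by limma), by mean embryo level (log2 RMA) and serosa minus embryo difference (log2). The other probe sets ran from -1.79 to 0.10, and those dimmer than 6.19, where a fall cannot be read, had a median of -0.25.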

How the data were processed

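RNA of 3 embryo and 3 serosa preparations was extracted with RecoverALL, a kit for fixed tissue, amplified and hybridized to 1 Affymetrix array each, per the labels' protocols. Per the series' design text, the authors computed the deposited log2 values with RMAExpress, which corrects background, brings the arrays to 1 distribution and summarises probe sets. The sources used here give neither its version nor its definitions of probe sets. Total RNA per preparation cannot be read from such values. Large rises can lower other probe sets in such a normalization, and whether they did so here was not tested. No depth applies to arrays, whose number limits the precision. All value columns were used, and at most 0.0474% of values were identical between replicates.

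The members and the splits were chosen with earlier results of these data known. Probe set IDs gave arm and class, and 0 of the 189 member IDs matched a RefSeq table of 15165 genes (assembly idAnoGambNW_F1_1). The gene lists and markers planned for named genes were therefore not used. By a fixed rule, the member with the largest fall and the one with the highest embryo mean were named by ID, and others were singled out after their values were seen.

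Differences over the 16884 Anopheles probe sets were tested in limma 3.58.1 (lmFit, then eBayes, under R 4.3.3) on group alone, and p-values were adjusted by Benjamini-Hochberg over all of them. The fit was tested on simulated data in which arrays varied independently. That test cannot show how the p-values hold where arrays deviate together. The p-values of the fit rest on the spread between the replicates that the labels name. Embryo and serosa arrays with 1 replicate number deviated together from their group means (r = 0.32, 0.33 and 0.22 across probe sets) unlike other pairs (-0.28 to -0.07). Within each group the deviations sum to 0, so this check is weak. The numbers may pair the samples, but no label says what they share. The main fit left the number out, and a fit with the number as a block was run as an alternative. Python 3.11.15 with matplotlib 3.10.9 drew the figures.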

Additional observations from a re-analysis of the deposited data

How the results depend on the processing

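The number of members followed the scaling of the arrays and the limits. The rule found 106 when the Anopheles values alone were quantile-normalized (99 of them among the 189), 46 with the medians of bright probe sets made equal (40 shared) and 512 with equal means of the hybridization controls (103 shared). It found 417 with a fall of at least 1.0 and 51 with at least 1.6, and 132 to 211 with other level limits. Leaving out 1 array gave 121 to 272, the fewest without serosa replicate 2. With the replicate number as a block, limma called 189 members and 1976 of all Anopheles probe sets lower, and both named members stayed called. Leaving out 1 array gave 107 to 183 members called and 647 to 1477 of all. The members called were 118 without embryo replicate 2 and 107 without embryo replicate 3. Of all, 678 and 647 were called without these arrays and 852 without serosa replicate 1. Equal hybridization controls gave 2241 of all. This scaling shifts arrays of 1 tissue unequally, so it can also change the spread within a group, and its part in that count was not tested. The median member difference was then -2.09, by the shift that this scaling applies. In the other scalings the median was -1.32 and -1.17, and with 1 array left out -1.66 to -1.32, the latter without serosa replicate 2. Ag.3R.827.0_CDS_at, chosen for its fall, kept its direction in all 13 alternatives but was not called in 6 of them. Ag.3R.561.0_CDS_at was not called in 2. The cause of these changes in the counts and calls was not tested.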
